A study of Mus musculus with 2 samples.

Results

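The genes described here build, attach and remodel the glycosylphosphatidylinositol (GPI) anchor, and Pigv is the edited gene among them. The list names 31 genes, chosen by their known place in the pathway and not by any measured value. Of these, 30 have a row among the 30223 genes of the expression table, and Dpm1 is not analysed here. They were followed in 15930 single cells of the mouse hippocampus: 7094 cells of a wild-type library and 8836 cells of a library from mice homozygous for the knock-in allele Pigv341E, both of strain C57Bl.6/J. Cells of 8 hippocampi from 4 mice were pooled for each genotype after mechanical dissociation in the cold, and the pools gave 1 droplet library (10x Genomics Chromium v3) each, sequenced on a shared lane. With the mice pooled, neither genotype has a replicate, and effects of the genotype and of the library cannot be told apart. No test between genotypes was possible, so every difference below is a difference between 2 libraries. The intervals given are exact Clopper-Pearson 95% intervals of shares of cells, and they cover counting error only, not variation between mice or preparations.

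A GPI anchor is a glycolipid that holds a protein to the outer face of the cell membrane. It is assembled step by step on phosphatidylinositol at the endoplasmic reticulum: N-acetylglucosamine is added and deacetylated, the inositol is acylated, mannoses are added from the donor dolichol-phosphate mannose, and ethanolamine phosphates are placed on the mannoses. A transamidase then exchanges the carboxy-terminal signal of the protein for the finished anchor, and remodelling enzymes trim the anchor on its way to the surface. In the brain many adhesion molecules, ephrins of class A and other synaptic surface proteins carry this anchor, and inherited defects of the pathway cause developmental disorders with seizures. Pigv adds the second mannose.

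The allele is named for codon 341 of Pigv. The gene lies at chr4:133660387-133672647 on the minus strand of GRCm38, and in the GENCODE M21 transcript Pigv-201 this codon falls in exon 3 of 4, within the coding sequence of 493 codons. The reference sequence around it, chr4:133664805-133664867 read on the minus strand, is shown because it is the site that distinguishes the genotypes; the capitals mark codon 341 in its unedited form.
Pigv codon 341: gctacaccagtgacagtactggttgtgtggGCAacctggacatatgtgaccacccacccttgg
From this codon to the 3′ end of the transcript there are 2582 bases. The libraries count tags near the 3′ end of transcripts, so the level of Pigv below does not read the edited base and does not check the genotype of a cell.

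The values are depth-corrected whole numbers, not raw counts. Their total per cell lay between 4846 and 14501. The level of a gene is its sum over a set of cells divided by the sum of all values in them, per 10000. Log2 ratios compare the knock-in with the wild-type level after adding 0.1 to each, which shrinks the ratios of weakly detected genes. The libraries differed in detection: the median number of genes per cell was 3122 in wild-type and 3736 in knock-in cells, the median mitochondrial share was 0.123% and 0.219%, and 28 cell barcodes occurred in both. Cells were grouped into 36 clusters without using the 30 genes, and 26 clusters were named from markers, and 10 of the resulting classes held at least 50 wild-type and 50 knock-in cells. Class names rest on markers alone and end in "-like". The 10 unnamed clusters held 1332 wild-type and 1646 knock-in cells. Among them, a cluster of 504 and 517 cells carried all 10 mature oligodendrocyte markers but was led by other genes.

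Pigv was weakly detected in both genotypes. Its level over all cells was 0.0886 in wild-type and 0.1004 in knock-in, a log2 ratio of 0.09. Cells with a Pigv value above 0 made up 6.37% (5.81 to 6.97%) of the wild-type library and 7.89% (7.33 to 8.47%) of the other. Thinning every cell to 1000 brought the shares to 0.860% (0.658 to 1.10%) against 0.962% (0.769 to 1.19%), with overlapping intervals. When values of 1 were set to 0 the log2 ratio changed sign to -0.07, so the transcript showed no direction between the libraries that held across settings. No class here is known to lack the genes of this pathway, so no share of cells could serve as a background for free RNA.

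By cell class, Pigv stood highest in microglia-like cells, the resident phagocytes of the brain, in both libraries. There its level was 0.308 in wild-type and 0.341 in knock-in, and 17.0% (14.3 to 20.1%) and 21.3% (18.6 to 24.1%) of the cells were above 0. Fibroblast-like cells followed in both libraries, with 0.158 in wild-type and 0.229 in knock-in. This class is 1 cluster that carried 7 of 8 fibroblast markers, with a summed level of 35.7 in wild-type and 39.1 in knock-in, but its astrocyte markers summed to 38.95 and 41.8; their part in the levels of the class was not tested. Interneuron-like cells held 0.141 and 0.106, and astrocyte-like cells 0.119 and 0.142. The remaining classes lay lower and close together. Choroid plexus epithelium-like cells were at 0.0865 and 0.104, mature oligodendrocyte-like cells at 0.0797 and 0.0607, Cajal-Retzius-like cells at 0.0761 and 0.0355, and oligodendrocyte precursor-like cells at 0.0686 and 0.0658. The principal neurons of the hippocampus were at the bottom of the wild-type order. Pyramidal neuron-like cells held 0.0508 and 0.0561, and dentate granule neuron-like cells 0.0425 and 0.0369. The share interval of microglia-like cells lay above those of the pyramidal, granule, astrocyte, mature oligodendrocyte, precursor and choroid plexus classes in both libraries, and overlapped that of fibroblast-like cells in both. Neighbours among the other classes mostly overlapped. The level of Pigv over the 10 classes correlated between the libraries with r = 0.953, a description over classes that share a library, a depth and a clustering. By the size rule given below, Pigv did not differ between the libraries in microglia-like and fibroblast-like cells. In the rest of the 10 classes its level was below 0.2 in both libraries, so Pigv could not pass the rule there. A further 3 named classes were too small to compare, with 1 to 4 cells above 0 per library. Pigv was at 0.114 in 24 wild-type and 0.114 in 44 knock-in endothelial-like cells, and at 0.349 and 0.248 in 18 and 14 ependymal-like cells. In pericyte or smooth muscle-like cells it was at 0.139 in wild-type and 0.0262 in knock-in, where 2 of 28 cells (7.14%, 0.877 to 23.5%) and 1 of 48 cells (2.08%, 0.0527 to 11.1%) had a value above 0, with overlapping intervals.

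**Figure D1:**
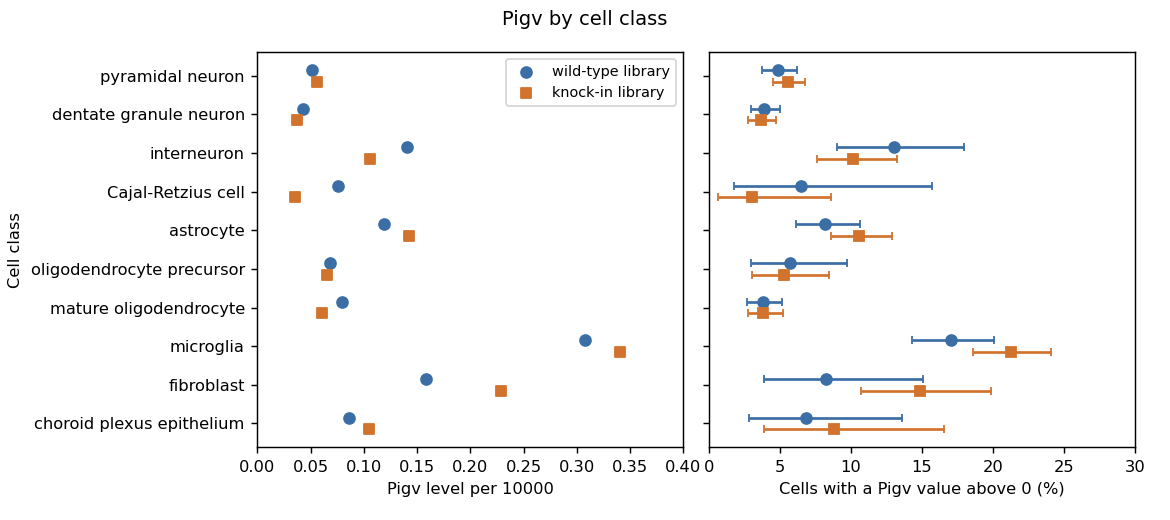
Level of Pigv per 10000 depth-corrected values (left) and percentage of cells with a Pigv value above 0 (right) in each of 10 marker-named classes, for the wild-type (circles) and knock-in (squares) library. Bars are exact 95% intervals for counting error. Microglia-like cells are highest in both libraries, at 0.308 and 0.341, and granule neuron-like cells are at 0.0425 and 0.0369.

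The microglia-like class was not uniform for Pigv. A cluster led by the homeostatic genes P2ry12 and Cx3cr1 held Pigv at 0.432 in wild-type and 0.506 in knock-in. Another led by Inpp5d held 0.322 and 0.241, and a small cluster led by Cd74 and Lyz2, with 24 and 41 cells, held 0.366 and 0.142. In the remaining cluster, led by Cst3, Tyrobp and Tmsb4x, Pigv was lowest, at 0.0348 and 0.0124. That cluster had the highest ribosomal protein share of the class, 6.15%, with 5.89% in the cluster led by Cd74 and 3.65% in that led by P2ry12. Its pyramidal neuron markers summed to 16.4, against 11.9 in the cluster led by Inpp5d and 3.35 in that led by P2ry12. Pigk was at 4.10 and 4.45 in it, against 3.06 and 3.22 in the Inpp5d cluster and 1.27 and 1.38 in the P2ry12 cluster. Of the microglia-like cells, the cluster led by Cst3 held 24.2% in wild-type and 12.6% in knock-in. Its part in the class level was not tested.

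Across the pathway the 2 libraries were close. A gene was taken as different by size when its level plus 0.1 differed at least 1.5-fold, the level reached 0.2 in either library, and 2% or more of the cells in that library had a value above 0. Of the 30 genes, 19 met these limits on level and cells over all cells, and 0 passed the 1.5-fold difference; among all genes 63 of 8139 passed, which is 0.774%. Over the 16 members whose mean level reached 0.2, the median log2 ratio was 0.08, beside 0.05 over all 7842 genes at that level. The ratio was above 0 for 24 of the 30 genes, but for 15 when values of 1 were set to 0. The shares of all genes above 0 are given by gene span below. The summed level of the 30 genes was 11.6 in wild-type and 12.02 in knock-in cells, and without Pigk, which alone gave 5.35 and 5.15, it was 6.29 and 6.87. A cell had a median of 5 of the 30 genes above 0 in either library. Shares of cells above 0 were higher in the knock-in library for 28 genes before thinning, with intervals apart for 22, where the intervals of 34.7% of all 30223 genes were apart in this direction. At the level floor of 0.2 they were apart for 11 of 16 members, beside 56% of all genes, so before thinning most genes of that level shared the direction. After thinning the share was higher for 23 genes, with intervals apart for 2, Dpm2 and Pigl, both at the floor, beside 11.3% of genes at the floor and 4.88% of all genes. For Pigk the share was lower, with intervals apart before thinning only, as for 16.1% of genes at the floor and 4.77% of all; after thinning 0 members were lower in this way, beside 8.08% and 2.25%. Intervals of these shares reached at most 1.10 percentage points to either side in wild-type and 1.01 in knock-in cells.

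**Figure D2:**
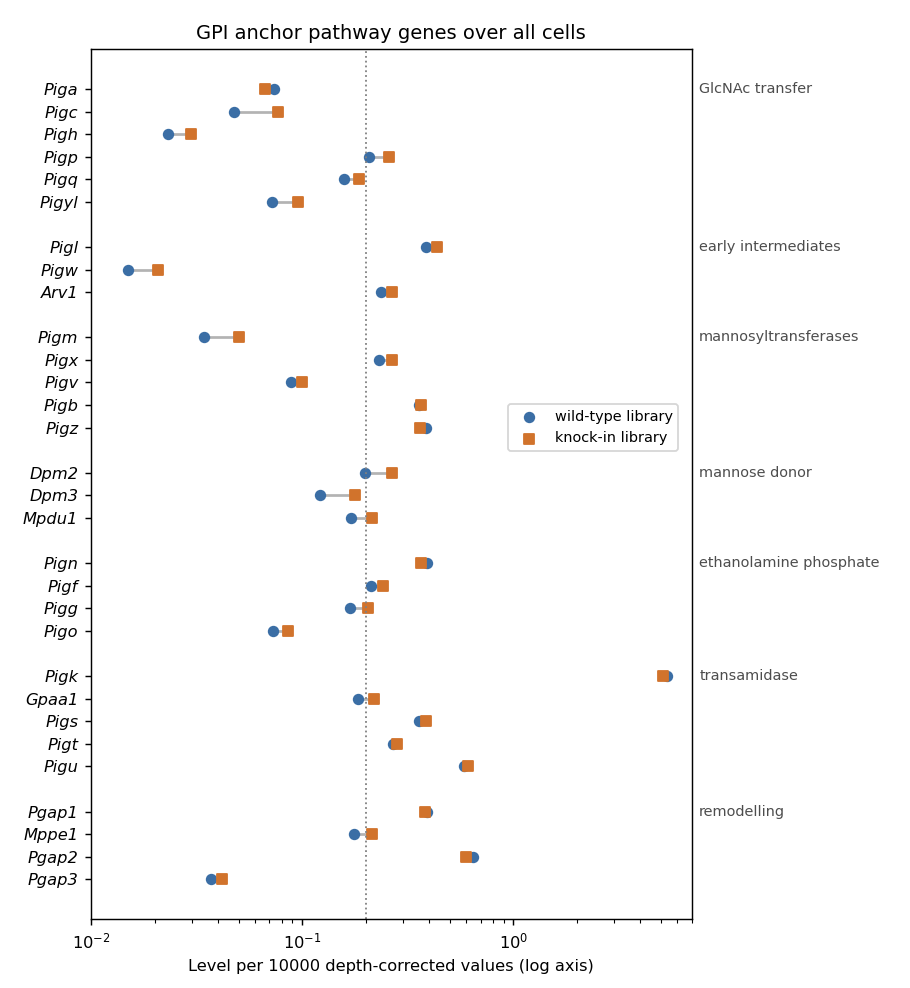
Level of the 30 genes over all cells, by pathway step, in the wild-type (circles) and knock-in (squares) library, on a log axis of levels per 10000 depth-corrected values; the dotted line marks a level of 0.2. The widest gaps are those of Pigc, Pigm and Dpm3, whose knock-in levels are 1.62, 1.46 and 1.45 times the wild-type levels with nothing added; all 3 lie below the dotted line.

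The first step is made by a complex that transfers N-acetylglucosamine, with Piga as its catalytic subunit. The 6 genes of this complex summed to 0.582 in wild-type and 0.713 in knock-in cells. Pigp, a subunit of the complex, was at 0.208 and 0.257, with a log2 ratio of 0.21. Pigq, which supports the assembly of the complex, was at 0.158 and 0.186. Pigc, a further subunit, had the largest log2 ratio of the step, 0.26, from levels of 0.0478 and 0.0773. Piga was the exception in direction, at 0.0736 in wild-type and 0.0666 in knock-in. Pigh and Pigyl, the remaining subunits, had log2 ratios of 0.08 and 0.19.

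In the steps that follow, Pigl removes the acetyl group, Pigw acylates the inositol, and Arv1 helps supply lipid intermediates. Pigl was at 0.388 in wild-type and 0.437 in knock-in. It was above 0 in 21.2% and 25% of cells, and after thinning in 3.19% (2.79 to 3.62%) and 4.03% (3.63 to 4.46%). Arv1 was at 0.235 and 0.266. Pigw was the least detected of the 30, at 0.0150 and 0.0208, and 1.27% and 1.83% of cells were above 0.

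The mannosyltransferases act in the order Pigm with its helper Pigx, then Pigv, Pigb and Pigz. Pigb, which adds the third mannose, was at 0.357 in wild-type and 0.366 in knock-in, a log2 ratio of 0.03. Pigz, which adds a further mannose to some anchors, was at 0.385 and 0.361, a log2 ratio of -0.07. Pigm, which adds the first mannose and so acts just before Pigv, was weakly detected, with levels of 0.0345 and 0.0505, a ratio of 1.46 with nothing added and a log2 ratio of 0.16 with 0.1 added. Pigx was at 0.232 and 0.267. The 5 genes together summed to 1.10 and 1.15.

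Among the genes of the mannose donor were the 2 largest log2 ratios of the list, those of Dpm3 and Dpm2. Dpm2 and Dpm3 are the accessory subunits of dolichol-phosphate mannose synthase, and Mpdu1 is needed for use of the donor. Dpm3 was at 0.122 in wild-type and 0.177 in knock-in, a log2 ratio of 0.32. Dpm2 was at 0.198 and 0.266, a log2 ratio of 0.30, and after thinning 1.54% (1.26 to 1.85%) and 2.39% (2.08 to 2.73%) of cells had a value above 0. Mpdu1 was at 0.170 and 0.214, a log2 ratio of 0.22. These differences stayed below 1.5-fold. All 3 kept their sign in each of 9 settings that change the ratios, with lowest values of 0.12 for Dpm3, 0.11 for Dpm2 and 0.12 for Mpdu1. The settings process the same 2 libraries again. The gene encoding the catalytic subunit of the synthase, Dpm1, is not analysed here.

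Ethanolamine phosphate is added to the first mannose by Pign, to the second by Pigg and to the third by Pigo, the last 2 with their partner Pigf. Pign was at 0.390 in wild-type and 0.366 in knock-in, a log2 ratio of -0.07. Pigf was at 0.212 and 0.241. Pigg and Pigo had log2 ratios of 0.18 and 0.11.

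In the transamidase, Pigk is the catalytic subunit, and Gpaa1, Pigs, Pigt and Pigu complete the complex. Pigk (chr3:152714100-152980408, plus strand) was at 5.35 in wild-type and 5.15 in knock-in, and 91.3% and 86.8% of cells were above 0. Thinned to 1000 per cell, it was found in 35.7% (34.6 to 36.8%) and 33.8% (32.8 to 34.8%). Pigu was at 0.584 and 0.614. Gpaa1, Pigs and Pigt had log2 ratios of 0.16, 0.09 and 0.05, so the subunits of the complex lay within a narrow band around 0 relative to the 1.5-fold limit.

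Of the remodelling genes, Pgap1 removes the acyl chain from inositol, Mppe1 removes an ethanolamine phosphate, and Pgap3 and Pgap2 exchange a fatty acid. Pgap2 had the lowest log2 ratio of the 30 genes, -0.10, from 0.646 in wild-type and 0.594 in knock-in. Pgap1 was at 0.390 and 0.383. Mppe1 was higher in the knock-in library, at 0.177 and 0.214, and Pgap3 was at 0.0372 and 0.0417. Over the 9 settings 14 of the 30 genes were higher in the knock-in library each time, Piga, Pign, Pgap1 and Pgap2 were lower each time, and the remaining 12, Pigv and Pigk among them, were neither. The settings process the same 2 libraries again, and no such count was made over all genes.

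Levels differed with the genomic span of a gene, which ran from 1.51 kb for Pigyl to 266 kb for Pigk. The part of span in these levels was not tested. The correlation of log2 level (0.1 added) with log10 span was r = 0.729 over the 30 genes in the wild-type library. Per 10 kb of span, Pigk was at 0.201 and 0.193 and no longer led the list. Dpm2 was highest by this measure, at 0.727 in wild-type and 0.978 in knock-in, followed by Gpaa1 at 0.502 and 0.594 and Pigyl at 0.476 and 0.633, whose order differed between the libraries. Pigv was at 0.0722 and 0.0819 per 10 kb, below Pigb at 0.108 and 0.111 and Pigz at 0.316 and 0.296. Counting with regard to strand is not stated, and several members overlap other genes: Pigp lies with Ttc3, Pigq with Gm26694 and Pigl with Ncor1, each on the opposite strand and each at a higher level than the member, while no gene of the table overlaps Pigv, Dpm2, Dpm3 or Pigs.

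The ratio between the libraries also moved with span. It was higher for short genes: the 10 members under 10 kb, Dpm2, Dpm3 and Pigc among them, all had a log2 ratio above 0, and so did 95.04% of the 766 genes of that span at the level floor, with a median of 0.20. Between 10 and 30 kb 10 of 13 members were above 0, beside 84.4% of all genes at the floor, whose median was 0.10. Between 30 and 100 kb 4 of 5 were above 0, beside 56.4% of all genes, and the median was 0.02. Over 100 kb neither of the 2 members, Pign and Pigk, was above 0, beside 40.6% of 2087 genes with a median of -0.04. The correlation of log2 ratio with log10 span was r = -0.570 over the 30 genes and r = -0.367 over 7840 genes; the points share the same cells and libraries. The ratios of the mannose donor genes therefore stand beside a median of 0.20 for genes as short as they are. That median is over genes at the level floor, which only 2 of the 10 short members reached. Dpm3 and Mpdu1 lay below the floor, where the added 0.1 shrinks ratios more. The part of span in these ratios was not tested.

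**Figure D3:**
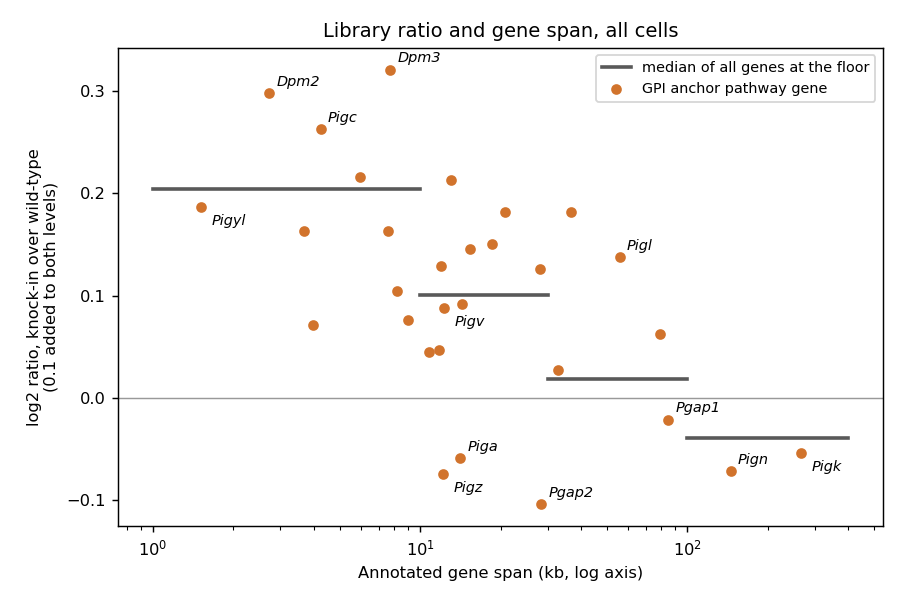
Log2 ratio between the knock-in and wild-type levels (0.1 added to each) over all cells against the annotated span of each gene in kb on a log axis. Points are the 30 pathway genes, and horizontal lines are the medians of all genes with a level of at least 0.2 in 4 span ranges, from 0.20 under 10 kb to -0.04 over 100 kb. Dpm3, Dpm2 and Pigc, all short, are at the top, and Pigk and Pign, the longest, are below 0.

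Levels also differed between cell classes, which were compared by another measure than the genotypes. A gene was called higher in a class when its level there reached 0.2 and was at least 2-fold the level in all other cells, with 0.1 added to both, in both libraries. By this measure 6 of the 30 genes were higher in a class: Pigz, Dpm3, Pigp, Pigyl, Pigs and Pigv. None was higher in the pyramidal neuron, Cajal-Retzius, interneuron, granule neuron, precursor and fibroblast classes, where 3.7%, 5.06%, 5.41%, 6.11%, 6.95% and 11.2% of all genes were. Shares of all genes for this measure are of genes whose level in the class reached 0.2 in both libraries. Being named highest in the same class in both libraries was common, for 18 of 30 members (60%), and for 10 of 16 members at the level floor (62.5%), beside 73.3% of all genes at the floor.

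**Figure D4:**
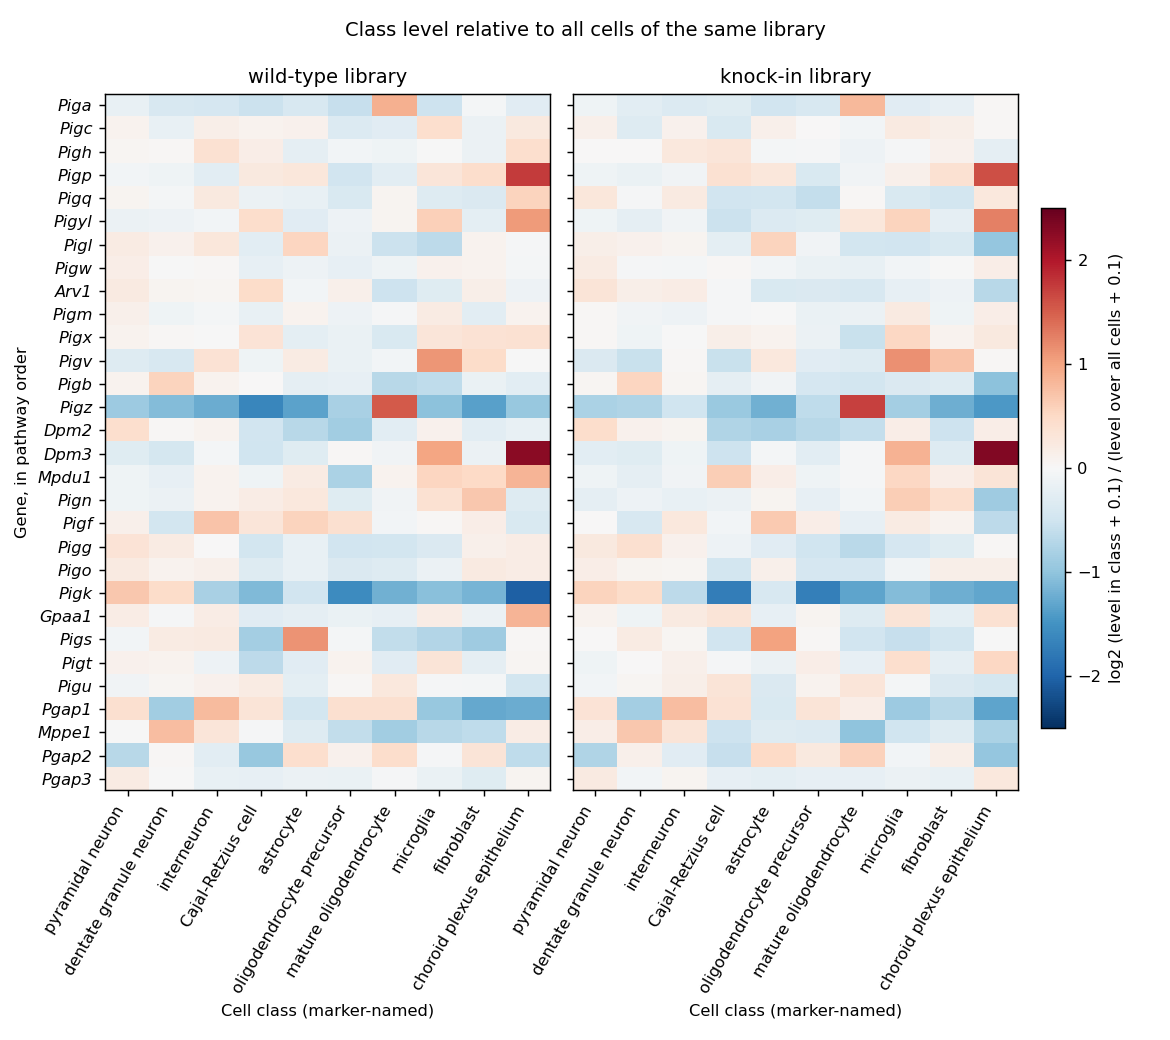
Level of each of the 30 genes in 10 marker-named classes relative to all cells of the same library, as log2 with 0.1 added to both levels, for the wild-type (left) and knock-in (right) library; red is higher and blue lower than over all cells. Pigz in the mature oligodendrocyte column, Dpm3 and Pigp in the choroid plexus column, Pigs in the astrocyte column and Pigv in the microglia column are red in both panels.

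In mature oligodendrocyte-like cells, which make myelin, the member higher was Pigz, the enzyme for the fourth mannose (chr16:31933851-31946046, plus strand). Pigz was at 1.31 there against 0.2502 in all other cells of the wild-type library, 4.04-fold, and at 1.40 against 0.245 in the knock-in library, 4.36-fold. Pigz was above 0 in 41.8% (38.7 to 44.9%) of these cells in wild-type and 48.8% (45.7 to 52.0%) in knock-in, and after thinning in 10.9% (9.01 to 13.0%) and 11.5% (9.60 to 13.7%). In astrocyte-like cells the shares were 6.00% (4.24 to 8.21%) and 6.33% (4.76 to 8.21%), so the classes were well apart in both libraries. By the same measure 1 of 8 members whose level reached 0.2 was higher in this class, beside 10.6% of all genes. Oligodendrocyte precursor-like cells held Pigz at 0.177 and 0.197, close to neurons and far below the mature cells. The unnamed cluster that carried all mature oligodendrocyte markers held it at 1.66 and 1.64. A small cluster of granule neuron-like cells in which 14.1% of the cells were called doublets held 0.717 and 0.766, with a summed level of mature oligodendrocyte markers of 31.5 against 4.25 in the main granule cluster.

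Piga was also highest in mature oligodendrocyte-like cells in both libraries, at a lower level and, in the knock-in library, below the floor of the 2-fold measure. It was at 0.222 in wild-type and 0.193 in knock-in cells of this class, and elsewhere at most 0.0678 in wild-type, in fibroblast-like cells, and 0.0696 in knock-in, in choroid plexus epithelium-like cells. Pgap2 was also highest in this class, at 0.907 and 0.941, but astrocyte-like cells were close behind with 0.899 and 0.880.

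Choroid plexus epithelium-like cells, which secrete cerebrospinal fluid, had 3 members higher, Dpm3, Pigp and Pigyl. They were 3 of 13 members whose level there reached 0.2 in both libraries, beside 22.9% of all genes, so the count was near that share. Dpm3 (chr3:89259358-89267079, plus strand) was at 0.962 against 0.110 elsewhere in wild-type cells, 5.07-fold, and at 1.28 against 0.165 in knock-in cells, 5.19-fold. Dpm3 was above 0 in 37.3% (27.9 to 47.4%) and 52.8% (42.0 to 63.3%) of the cells. Pigp was at 0.930 and 0.986 in the class, 3.46-fold and 3.11-fold the level elsewhere. Pigyl was at 0.259 and 0.371, 2.12-fold and 2.44-fold. These genes were not shared evenly by the class. In a cluster led by Ttr, the transthyretin gene, Dpm3 was at 1.55 and 1.60 and Pigp at 1.36 and 1.19. In a cluster led by Htr2c Dpm3 was at 0.154 and 0.245 and Pigp at 0.334 and 0.344. Pigyl was at 0.429 and 0.4405 in the former and at 0.0257 and 0.147 in the latter. Ribosomal protein shares were 4.53% in the former and 0.337% in the latter. A mature oligodendrocyte-like cluster led by Cryab, with a share of 1.91%, held Pigyl at 0.671 and 0.522. The part of these shares in the levels was not tested. The cluster led by Ttr made up 60.8% of the class in wild-type and 76.9% in knock-in cells.

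Dpm3 was second highest in microglia-like cells, at 0.341 in wild-type and 0.404 in knock-in, with the other classes at or below 0.126 and 0.173. Ttr, whose transcripts are made by the choroid plexus, was detected in every other class too and was higher in the knock-in library there, for example 1.83 in wild-type and 3.42 in knock-in astrocyte-like cells. In the same cells Dpm3 was at 0.0804 and 0.168, with values above 0 in 5.5% and 12.04%. In granule neuron-like cells Ttr was at 0.885 and 1.32 and Dpm3 at 0.0645 and 0.125. The part of transcripts from choroid plexus cells in the level of Dpm3 elsewhere was not tested.

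In astrocyte-like cells the member higher was Pigs, a structural subunit of the transamidase (chr11:78328415-78342782, plus strand). Its level was 0.892 against 0.311 elsewhere in wild-type, 2.42-fold, and 0.878 against 0.340 in knock-in, 2.22-fold. Of 12 members whose level reached 0.2 in the class, 1 was higher, beside 12% of all genes. A value above 0 was found in 35.5% (31.7 to 39.5%) and 40.0% (36.7 to 43.5%) of the cells. Interneuron-like cells held 0.435 and 0.401 and granule neuron-like cells 0.428 and 0.461, the next levels down. The other subunits of the transamidase did not share this pattern: in astrocyte-like cells Gpaa1 was at 0.145 and 0.177, Pigt at 0.201 and 0.244 and Pigu at 0.478 and 0.452, each below its level over all cells in both libraries. Pigl, the deacetylase, was highest in astrocyte-like cells too, at 0.611 and 0.684, below the 2-fold measure.

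Pigv was the member higher in microglia-like cells, where 22.3% of all genes were. Its level of 0.308 in wild-type stood against 0.0683 elsewhere, 2.42-fold, and 0.341 in knock-in against 0.0757, 2.51-fold. This call, like that of Pigyl, was lost when values of 1 were set to 0 or the level floor was raised to 0.5, while those of Pigz, Dpm3, Pigp and Pigs held in all 10 settings in which the measure was applied.

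**Figure D5:**
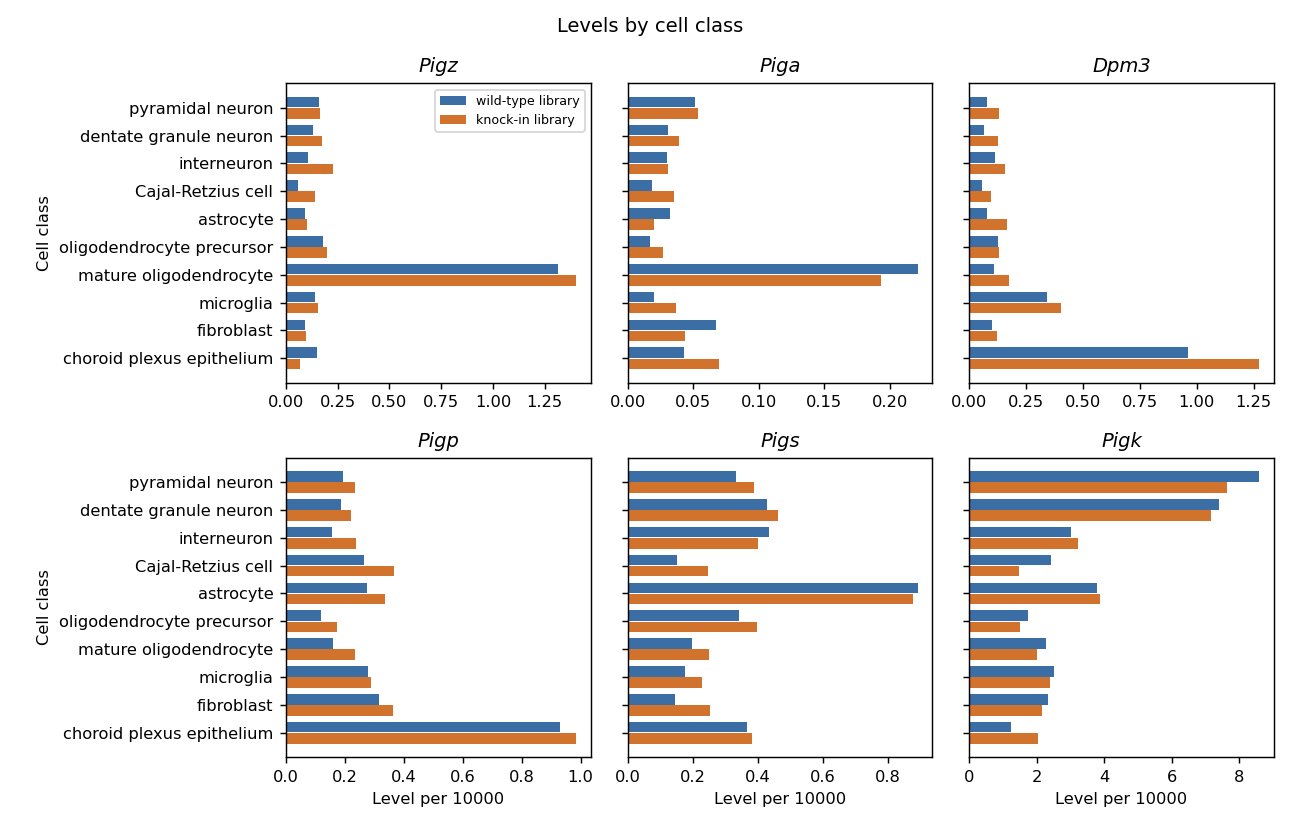
Level per 10000 depth-corrected values of Pigz, Piga, Dpm3, Pigp, Pigs and Pigk in 10 marker-named classes, in the wild-type (blue) and knock-in (orange) library; bars start at 0 and each panel has its own axis. Pigz reaches 1.31 and 1.40 in mature oligodendrocyte-like cells, Dpm3 0.962 and 1.28 in choroid plexus epithelium-like cells, and Pigk 8.60 and 7.65 in pyramidal neuron-like cells.

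In the principal neurons, Pigk and Mppe1 stood out but missed the 2-fold measure in the clustering described here. Pigk passed it in pyramidal neuron-like cells in 2 of 10 settings, those with Leiden resolution 2 and with 15 principal components. Pigk in pyramidal neuron-like cells was 1.86-fold in wild-type and 1.69-fold in knock-in the level elsewhere, and Mppe1 in granule neuron-like cells 2.12-fold and 1.82-fold. Pyramidal neuron-like cells held Pigk at 8.60 in wild-type and 7.65 in knock-in, and granule neuron-like cells at 7.41 and 7.16. Astrocyte-like cells were next at 3.80 and 3.89, then interneuron-like cells at 3.02 and 3.24. The lowest wild-type level was 1.23, in choroid plexus epithelium-like cells. Pigk was lower than elsewhere by the same 2-fold measure in both libraries in 6 classes: Cajal-Retzius, choroid plexus epithelium, fibroblast, mature oligodendrocyte, microglia and oligodendrocyte precursor-like cells, where 12.8%, 24.1%, 14.4%, 22.4%, 23.6% and 10.6% of all genes were lower by that measure. Pigz was lower in astrocyte-like and fibroblast-like cells, where 17.8% and 14.4% of all genes were, and Pgap1 in choroid plexus epithelium-like cells. In the interneuron, pyramidal neuron and granule neuron classes 0 members were lower, where 8.39%, 11.3% and 13.3% of all genes were.

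The lower Pigk level of knock-in pyramidal neuron-like cells was seen in 3 of the 5 clusters of the class. In the largest wild-type cluster of the class Pigk was at 11.5 in wild-type and 12.5 in knock-in, and in the next at 7.22 and 7.84. In a cluster led by Unc5d and Efna5 it was at 4.996 and 3.73, in a cluster led by Sgcz and Npsr1 at 4.71 and 3.70, and in the last at 4.603 and 4.37. The first of these clusters was 47.8% of the class in wild-type and 34.8% in knock-in cells, and the cluster led by Unc5d was 10.0% and 27.7%.

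Further members had class patterns below the 2-fold measure. Pgap1, the inositol deacylase, was highest in interneuron-like cells, at 0.747 in wild-type and 0.720 in knock-in. The 2 clusters of that class differed. In a cluster with Lef1 and Otx2os1 among its leading genes Pgap1 was at 1.07 and 0.842, and in a cluster led by Kcnmb2 at 0.578 and 0.614. Interneuron markers summed to 28.7 in the former and 171.4 in the latter. Pgap1 reached 1.81 and 1.83 in the pyramidal cluster led by Sgcz, against 0.167 and 0.168 in granule neuron-like cells. Both Pigb and Mppe1 were highest in granule neuron-like cells in both libraries, at 0.572 and 0.576 for Pigb and at 0.369 and 0.398 for Mppe1. Dpm2 was highest in pyramidal neuron-like cells, at 0.297 and 0.398, unlike its partner Dpm3. Members with few values above 0 gave less stable orders: over the 10 classes the correlation between the libraries was r = 0.207 for Pigh and r = 0.409 for Pigc, beside 0.991 for Pigz and 0.996 for Dpm3.

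The sequences before the start sites of Pigv and Pigz are shown because each of these mannosyltransferases was higher in a class, microglia-like and mature oligodendrocyte-like cells. They are the 150 bases directly before the annotated start, from RefSeq windows on GRCm38.p6, all in lower case since none of the motifs searched was found.
Pigv (chr4:133672648-133672797, minus strand): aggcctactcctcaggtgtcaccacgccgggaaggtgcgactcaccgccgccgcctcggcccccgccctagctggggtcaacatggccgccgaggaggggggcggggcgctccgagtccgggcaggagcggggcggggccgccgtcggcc
Pigz (chr16:31933701-31933850, plus strand): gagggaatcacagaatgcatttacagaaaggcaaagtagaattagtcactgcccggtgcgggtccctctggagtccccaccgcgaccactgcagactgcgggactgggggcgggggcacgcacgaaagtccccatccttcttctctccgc
Over the full windows of 300 bases, the GC content was 75.3% for this window of Pigv and 52.3% for Pigz. RefSeq has a second start of Pigv farther upstream, with chr4:133673167-133673316 as the 150 bases before it, and the GC content of that window was 45.7%. Windows were found for 24 of the 30 genes, with a median GC content of 61.5% when the GC-richest window of a gene was taken, beside 63.7% over genes with a level of at least 0.2 and 58.0% over all genes. The TATA letters TATAAA, searched from 45 to 15 bases before the start, were in 0 of the 24, in 1.00% of genes with a level of at least 0.2 and in 2.10% of all genes. Letters bound by SOX factors (ACAAAG) were in 16.5% and letters bound by PU.1 (GAGGAAGT) in 3.004% of 21335 promoter windows, both strands searched, and in none of the windows of Pigv and Pigz.

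Between genotypes, differences within a class were searched in 300 pairs of a gene and a class, of which 156 met the limits on level and cells. Of these, 11 passed the 1.5-fold size rule. They lay in 3 classes: 6 in choroid plexus epithelium-like cells, 4 in Cajal-Retzius-like cells and 1 in interneuron-like cells. The first 2 of these classes are small, with 102 wild-type and 91 knock-in cells and with 62 and 99 cells, and many genes passed the rule there: 23.3% of all genes in the choroid plexus class, beside 6 of 19 members, and 17.8% in the Cajal-Retzius class, beside 4 of 15. In the interneuron-like class 2.36% of all genes passed, beside 1 of 19 members. With values of 1 set to 0 the count was 14, but only 5 of the 11 pairs were among them: Mpdu1 and Pigk in Cajal-Retzius-like cells, and Pigl, Dpm2 and Pigk in choroid plexus epithelium-like cells.

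In choroid plexus epithelium-like cells, the 4 genes lower in the knock-in library were spread over the pathway, in a class where 16% of all genes were lower and 7.25% higher by this rule. Pigl, the deacetylase, was at 0.378 in wild-type and 0.174 in knock-in, with values above 0 in 23.5% (15.7 to 33.0%) and 14.3% (7.83 to 23.2%) of cells. Mppe1 was at 0.216 and 0.0812, Pigb at 0.281 and 0.128, and Pign at 0.292 and 0.151. Higher were Dpm2, at 0.162 and 0.313, and Pigk, at 1.23 and 2.03. The share intervals overlapped for all 6, and none of the 6 passed when every cluster of the class was given equal weight in both libraries.

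In Cajal-Retzius-like cells, early-born neurons at the hippocampal surface, 3 genes were higher in the knock-in library, where 8.24% of all genes were higher and 9.54% lower by this rule. Mpdu1 was at 0.152 in wild-type and 0.379 in knock-in, with values above 0 in 8.07% (2.67 to 17.8%) and 20.2% (12.8 to 29.5%) of cells. The transamidase subunits Gpaa1 and Pigt were both at 0.133 in wild-type, and at 0.296 and 0.272 in knock-in. The catalytic subunit Pigk had the opposite sign, at 2.43 and 1.49, and 74.2% (61.5 to 84.5%) and 55.6% (45.2 to 65.5%) of the cells had a value above 0. Intervals overlapped for all 4 genes.

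In interneuron-like cells Pigz was at 0.107 in wild-type and 0.228 in knock-in, a log2 ratio of 0.67, in a class where 1.79% of all genes were higher by this rule. It was above 0 in 8.82% (5.55 to 13.2%) of wild-type cells and in 19.5% (16.1 to 23.3%) of the knock-in cells, and the intervals did not overlap; after thinning they did, at 1.26% (0.261 to 3.64%) and 2.91% (1.60 to 4.83%). Pigz no longer passed the rule in this class when values of 1 were set to 0 or the level floor was raised to 0.5, and it passed in the other 9 of 11 settings, the one described here included. The level was higher in both clusters of the class, at 0.149 in wild-type and 0.236 in knock-in in the first and at 0.0843 and 0.221 in the second. Interneuron markers summed to 28.7 in the first cluster and 171.4 in the second. The summed level of mature oligodendrocyte markers, where Pigz is high, was 2.41 in wild-type and 3.21 in knock-in interneuron-like cells. Its part in the level of Pigz was not tested.

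In the other 7 classes 0 members passed, with 0.918% of all genes passing in the granule neuron class, 2.27% in the pyramidal, 2.46% in the microglia, 2.65% in the astrocyte, 3.74% in the mature oligodendrocyte, 5.2% in the precursor and 9.28% in the fibroblast class. In microglia-like cells, where Pigv was highest, 27 of the 30 log2 ratios were above 0 and the median over 16 members at the level floor was 0.20, beside 0.08 over all genes. Of all genes at the floor there, 79.3% under 10 kb and 82.3% from 10 to 30 kb were above 0. From 30 to 100 kb 62.6% were, and over 100 kb 32.7%. In pyramidal neuron-like cells 24 members were above 0, with a median of 0.07 beside 0.02. The shares over all genes in the same order of span were 83.9%, 70.1%, 48.3% and 41.4%.

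A further 25 genes that act beside the pathway were counted: cargo receptors of the secretory route for GPI-anchored proteins, enzymes that make dolichol and mannose phosphates, and enzymes that cut anchors. Of these, 15 met the limits over all cells and 0 passed the size rule, with a median log2 ratio of 0.10. Dhdds, which makes the dolichol chain, was the highest of them in level, at 1.46 in wild-type and 1.41 in knock-in.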

How the data were processed

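Cells of 1 wild-type and 1 knock-in pool were analysed. The authors deposited a table of genes by cells whose values, all whole numbers, are depth-corrected and were treated as a score, not as counts; the submitters' processing notes name Seurat 3.0.0 and GRCm38. The aligner, annotation, cell filter and any doublet removal are not given in the sources used here, and the sequencing depth of a cell is unknown. No count model was therefore used. The processing took the values as deposited, kept all cells and doublets (scrublet called 61 wild-type and 209 knock-in cells), and formed levels, ratios and the size rule as defined with the results.

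Clusters were computed with scanpy 1.11.5 (Python 3.11.15) from 2000 variable genes, 30 components, 15 neighbours and Leiden resolution 1, with no batch correction. Each cluster was named for the class with most of its markers, 3 or more, a marker counting at 25% of cells and 1.5-fold the level elsewhere; it stayed unnamed when markers or leading genes of another class competed. Positions and spans are those of the GENCODE M21 annotation of GRCm38, joined on gene symbols.

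The members and gene lists were chosen with earlier results of these data known. Named with values are Pigv in every class, the 2 members of highest level per step, and every member past the size rule or higher in a class; others named were chosen after their values were seen. Alternatives tried were values of 1 set to 0, a smaller added constant (0.02), equal cell totals, a filter on cells, no doublets, equal cluster weights, centring, other level floors and other clusterings.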

Additional observations from a re-analysis of the deposited data

Results flagged for a closer look

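Pigk, the catalytic subunit of the transamidase, differed between the libraries with opposite sign in 2 classes. In Cajal-Retzius-like cells its log2 ratio of knock-in over wild-type was -0.672, and in choroid plexus epithelium-like cells it was 0.677. By the size rule 17.8% of all genes passed in the first class and 23.3% in the second, and the share intervals of Pigk overlapped in both. With equal cluster weights Pigk no longer passed in choroid plexus epithelium-like cells. The Cajal-Retzius-like class is 1 cluster, so equal weights could not change its result. With 15 principal components Pigk did not pass in Cajal-Retzius-like cells. Each genotype is 1 library and both classes are small, so the difference in Pigk between the classes was not tested.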

How the results depend on the processing

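Over all cells, 0 members passed the size rule in every alternative tried, and the 6 genes higher in a class became 4 to 8 pairs. The log2 ratio of Pigv (0.088) was -0.066 with values of 1 set to 0, 0.149 with 0.02 added to levels, 0.075 with each cell scaled to the same total, 0.013 with equal cluster weights and 0.060 when centred on the median of all genes. In the same order, leaving out equal weights, the median log2 ratio of the members (0.077) was -0.063, 0.091, 0.061 and 0.031, and it was 0.129 with a level floor of 0.1 and -0.054 with a floor of 0.5, over which fewer members remain. The 11 pairs of gene and class past the size rule became 5 with equal cluster weights and 2 with a floor of 0.5, all among the 11; with values of 1 set to 0 they became 14, of which 5 were among the 11, so 6 were lost and 9 added. Equal cluster weights could not change the pairs in Cajal-Retzius-like cells, because that class is 1 cluster. The share of cells with a Pigv value was 1.517 percentage points higher in the knock-in library before thinning and 0.102 after it. Leaving out the microglia-like cluster led by Cst3 and the granule neuron-like cluster with oligodendrocyte transcripts, chosen after seeing the data, changed no call. Apart from the values given here, the cause of a change between settings was not tested. No paired analysis was possible because each genotype is a single pooled library.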
